A study of Mus musculus with 2 samples.

Results

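The WAP (whey acidic protein) domain inhibitors are small secreted proteins, and 6 of their mouse genes are described here: Slpi, Wfdc2, Wfdc3, Wfdc18, Wfdc15b and Wfdc15a. They were chosen by their transgenic to wild-type ratios on these same arrays together with their family name, so their ratios are given as a description. Every non-control probe whose accession belongs to one of the 6 symbols was taken. All 6 genes had a probe, 7 probes in all, out of 18952 genes with both a probe and a symbol. The arrays measured RNA from the ventral prostate of FVB/N mice (the labels also spell the strain FBV/N) at 6 months of age. One pool held RNA of 6 wild-type mice and the other RNA of 6 ARR2PB-miR32 transgenic mice, whose composite probasin promoter directs miR-32 to prostate epithelium under androgen control. The tissue label is ventral prostate, while the growth protocol in the labels also mentions dorsolateral lobes. Both pools were hybridised together on 2 two-colour arrays with the dyes exchanged, the transgenic pool in Cy3 on array 1 and in Cy5 on array 2. The arrays are technical replicates of 1 pool per genotype, so no test was run, the SDs given below are of 2 arrays, and the spread between mice is unknown.

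The WAP domain is a compact fold held together by disulphide bonds between conserved cysteines, and in several of these proteins it blocks serine proteases. SLPI is the best known: it is secreted by mucosal and glandular epithelium and by phagocytes, inhibits neutrophil elastase and cathepsin G, and has antibacterial activity. Most of the family's genes lie in one chromosomal cluster, beside the genes of seminal vesicle secretion. miR-32 is a microRNA that pairs with messenger RNAs through its seed, bases 2 to 8, shown in capitals in the mature sequences of the RefSeq table (GRCm38.p6). The 5p strand carries the seed shared with the miR-25/92 family.

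mmu-miR-32-5p: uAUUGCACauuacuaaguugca
mmu-miR-32-3p: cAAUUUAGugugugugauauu

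Slpi and Wfdc18 were about an order of magnitude lower in the transgenic pool, Wfdc3 was lower to a smaller degree, and Wfdc2 and Wfdc15b lay below wild type without passing the rule for a call. To be called, a gene needed a mean log2 ratio of 1 or more in either direction, with each array showing a change of 1.5-fold or more that way. A gene was detected where 1 of the pools was well above background on both arrays. By this rule 3 of the 5 detected members were lower and 0 were higher. Of all 13902 detected genes, 3.53% were called lower and 1.09% higher. Of these 13902, 10965 had a symbol, and the rest were counted under their array identifier. Since the members were chosen on this contrast, nothing is read from their share. The median log2 ratio was -1.44 over the 5 detected members and 0.01 over all detected genes. After loess normalization all 5 were below 0 on both arrays, which for Wfdc2 and Wfdc15b did not hold with median centring. The members nearest to the limit of the rule were Wfdc3 at -1.44, which passed, and Wfdc2 at -0.70, which did not.

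**Figure D1:**
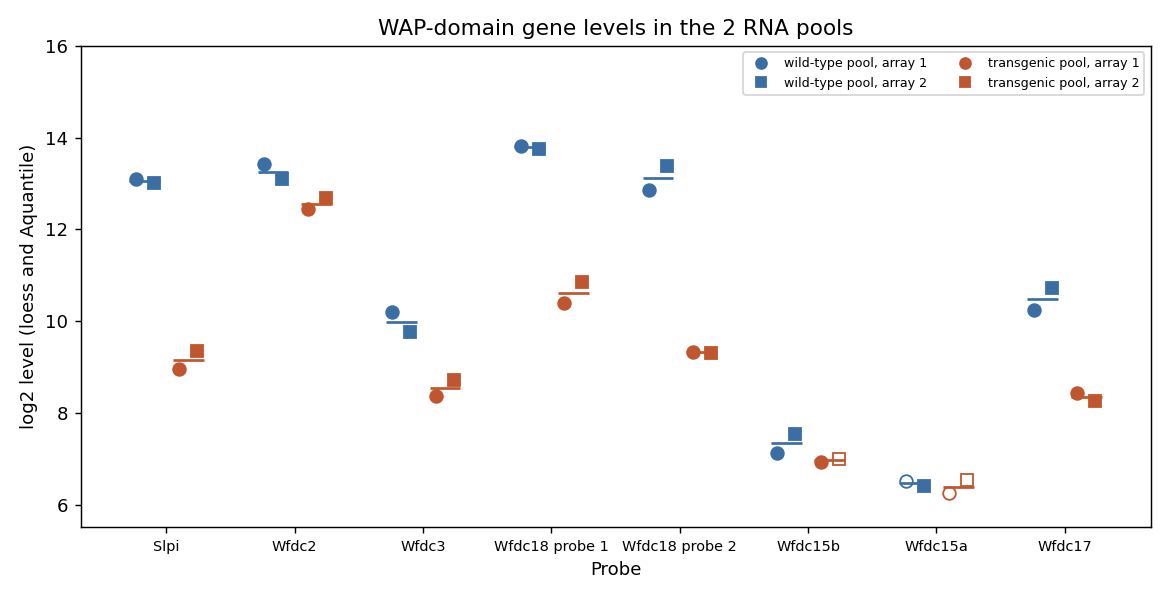
Normalized log2 level of each member probe, and of the Wfdc18 neighbour Wfdc17, in the wild-type (blue) and transgenic (orange) pools on array 1 (circles) and array 2 (squares), with the mean of the arrays as a bar and open symbols where the signal was not well above background. The wild-type values of Slpi (13.11 and 13.00) lie above its transgenic values (8.96 and 9.35), while those of Wfdc15a all lie between 6.24 and 6.54. Levels of different probes cannot be compared with each other.

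Slpi is measured by 1 probe, A_52_P472324, printed as 1 spot on each array. On array 1 the median signal was 5336.5 for the wild-type pool over a local background of 105, and 713 for the transgenic pool over a background of 24. On array 2 it was 14846 over 27 for wild type and 453 over 117.5 for transgenic. Each of the 4 Slpi signals was well above background, and in each dye orientation the wild-type signal was the higher. After normalization the wild-type level was 13.11 on array 1 and 13.00 on array 2 on the log2 scale. The transgenic level was 8.96 and 9.35, below wild type on each array. These are repeated readings of the same RNA pools and do not show the spread between mice. The log2 ratio of transgenic over wild type was -4.15 on array 1 and -3.66 on array 2, with a mean of -3.90 ± 0.35, or 14.9-fold lower. Of the detected genes, 14 had a mean ratio as low as that of Slpi, Slpi included.

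Wfdc18, also called Expi or WDNM1, encodes an extracellular proteinase inhibitor first described in the mammary gland. It has 2 probes. By the brighter one, A_51_P246166, the wild-type pool gave 8649 over a background of 117.5 on array 1 and 24381 over 31 on array 2. The transgenic pool gave 2042 over 30 and 1186 over 105.5. These signals correspond to log2 ratios of -3.43 and -2.90, a mean of -3.17 ± 0.37, or 8.99-fold lower.

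The other probe of Wfdc18, A_52_P329207, read 4502 over 109 and 19269 over 24 in the wild-type pool on array 1 and array 2. In the transgenic pool it read 925.5 over 29.5 and 441 over 115. Its log2 ratios were -3.55 and -4.07, a mean of -3.81 ± 0.37, or 14.01-fold lower. Both probes put the gene lower on both arrays, but the larger difference was on array 1 for the brighter probe and on array 2 for the other. The range of the second probe overlaps that of Slpi, so the order of Slpi and Wfdc18 by ratio is not settled by these arrays. No spot of either probe was saturated, and the letters of the probes were not used here, so signal shared with the neighbouring gene Wfdc17 was not checked.

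Wfdc3, which encodes a protein with several WAP repeats, has 1 probe, A_52_P416086. The wild-type pool gave 787 over a background of 114 on array 1 and 1502 over 24 on array 2, and the transgenic pool gave 437 over 28 and 317 over 122. The normalized wild-type levels of 10.19 and 9.75 lay above the transgenic levels of 8.37 and 8.71. The log2 ratio was -1.83 on array 1 and -1.05 on array 2, with a mean of -1.44 ± 0.55, or 2.71-fold lower. The arrays of Wfdc3 differed by 0.78 on the log2 scale, more than for any other member probe, and the ratio on array 2 alone was 2.06-fold.

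Wfdc2, known as HE4, is a secreted epithelial protein first found in the epididymis and used as a serum marker in ovarian cancer. Its probe, A_51_P465211, was bright in both pools. On array 1 the wild-type pool (Cy5) gave 6397 over a background of 123 and the transgenic pool (Cy3) gave 8525 over 28, so that the transgenic signal was the higher before dye normalization. On array 2, with the dyes exchanged, wild type gave 15460.5 over 24 and transgenic 4225 over 119. After loess the wild-type levels of 13.42 and 13.11 both lay above the transgenic levels of 12.44 and 12.69. The log2 ratios were -0.98 and -0.42, a mean of -0.70 ± 0.39, or 1.62-fold lower. Wfdc2 missed both limits of the rule, with a mean under 1 in size and a ratio of 1.34-fold on array 2. Of all detected genes, 6.08% had a mean ratio as low as Wfdc2 or lower.

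Wfdc15b and Wfdc15a are neighbouring genes for small single-domain proteins, and Wfdc15b (SWAM1) is known for antibacterial activity. Both were dim. The Wfdc15b probe, A_51_P462708, gave 177.5 over 132 for wild type and 109 over 28.5 for transgenic on array 1, and 245 over 31 and 143 over 116 on array 2. The transgenic signal on array 2 was not well above background. The log2 ratios were -0.19 and -0.55, a mean of -0.37 ± 0.25, which did not pass the rule. With the processed signals of the scanner software Wfdc15b stood at -0.83 on array 1 and -1.58 on array 2, a mean of -1.21 ± 0.53 that would be called lower. The size of its ratio thus moved with the processing, while both sets of ratios were below 0.

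The Wfdc15a probe, A_51_P323770, was well above background only for wild type on array 2, at 62.5 over 27.5. Its other signals were 122.5 over 100.5 for wild type on array 1, and 42 over 25 and 137.5 over 119 for transgenic. Wfdc15a was therefore not detected, and no direction is read from log2 ratios of -0.28 and 0.14.

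**Figure D2:**
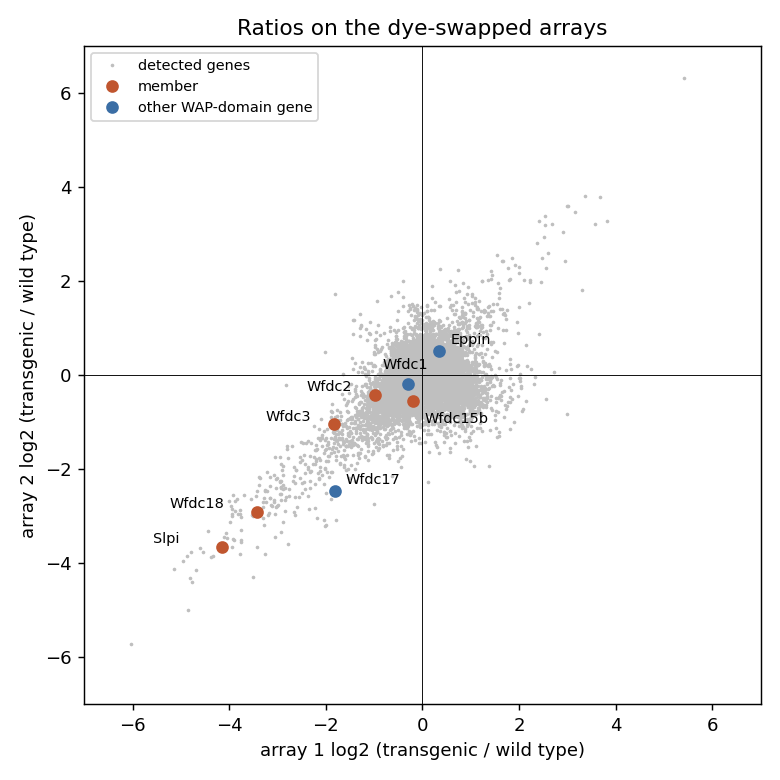
Log2 ratio of transgenic over wild type on array 1 (x axis) against array 2 (y axis) for all 13902 detected genes (grey), the 5 detected members (orange) and the 3 other detected WAP-domain genes (blue). Slpi and Wfdc18 lie at the far lower left, Wfdc3 and Wfdc17 nearer the centre, and Wfdc2, Wfdc15b and Wfdc1 at the edge of or inside the cloud.

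In order of mean ratio the detected family members ran from Slpi through Wfdc18, Wfdc17, Wfdc3, Wfdc2, Wfdc15b and Wfdc1 to Eppin. Neighbours whose values on single arrays overlap are Wfdc17 (-1.81 and -2.46) and Wfdc3 (-1.83 and -1.05), and Wfdc2 (-0.98 and -0.42) and Wfdc15b (-0.19 and -0.55). The ranges of Wfdc15b and Wfdc1 (-0.29 and -0.18) overlap as well. The values of Wfdc3 and Wfdc2 do not overlap, although the weaker array of Wfdc3 (-1.05) lies close to the stronger array of Wfdc2 (-0.98).

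Outside the 6 members the gene table holds 18 other WAP-domain genes, of which 11 had a probe and 3 were detected. Wfdc17 (Amwap), a product of activated macrophages and microglia, was the 1 gene of these called lower, and 0 were called higher. Its wild-type signals were 801 over a background of 106 and 3007 over 29, and its transgenic signals 458 over 25.5 and 251 over 128. The mean log2 ratio of Wfdc17 was -2.13 ± 0.47, or 4.39-fold lower. Wfdc1 (ps20), a growth-suppressing protein of prostate stroma, was at -0.24 ± 0.08. Eppin, an epididymal and testicular inhibitor that coats sperm, was at 0.43 ± 0.11, with the transgenic pool well above background on both arrays and the wild-type pool on 1. With the processed signals of the scanner software Eppin stood at 1.22 and would be called higher. The probes of Wfdc5, Wfdc6a, Wfdc12, Wfdc21, Wap, Wfikkn1, Wfikkn2 and Papln were not detected, and Wfdc6b, Wfdc8, Wfdc9, Wfdc10, Wfdc11, Wfdc13 and Wfdc16 had no probe under their symbol.

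By the order of genes in the RefSeq table, Slpi, Wfdc2, Wfdc3, Wfdc15a and Wfdc15b belong to 1 cluster on chromosome 2, and Wfdc18 lies on chromosome 11 directly beside Wfdc17, followed by Wfdc21. The stretch of chromosome 2 from Wfdc5 to Wfdc3 holds 32 protein-coding genes, 16 of them with a WAP domain. Of the 16 others 4 were detected, and 0 were called in either direction. They were Sdc4, a cell surface proteoglycan (0.26 ± 0.54), Sys1 (0.02 ± 0.18), Dbndd2 (-0.10 ± 0.49) and Pigt, a subunit of the GPI transamidase (0.31 ± 0.39). Sdc4, Sys1 and Dbndd2 lay above 0 on one array and below it on the other. These 4 genes lie between Slpi and Wfdc2, so the called members Slpi and Wfdc3 are separated by genes that were not called. The seminal vesicle genes Svs2, Svs3a, Svs4, Svs5 and Svs6, which lie between Wfdc15b and Slpi, were not detected.

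**Figure D3:**
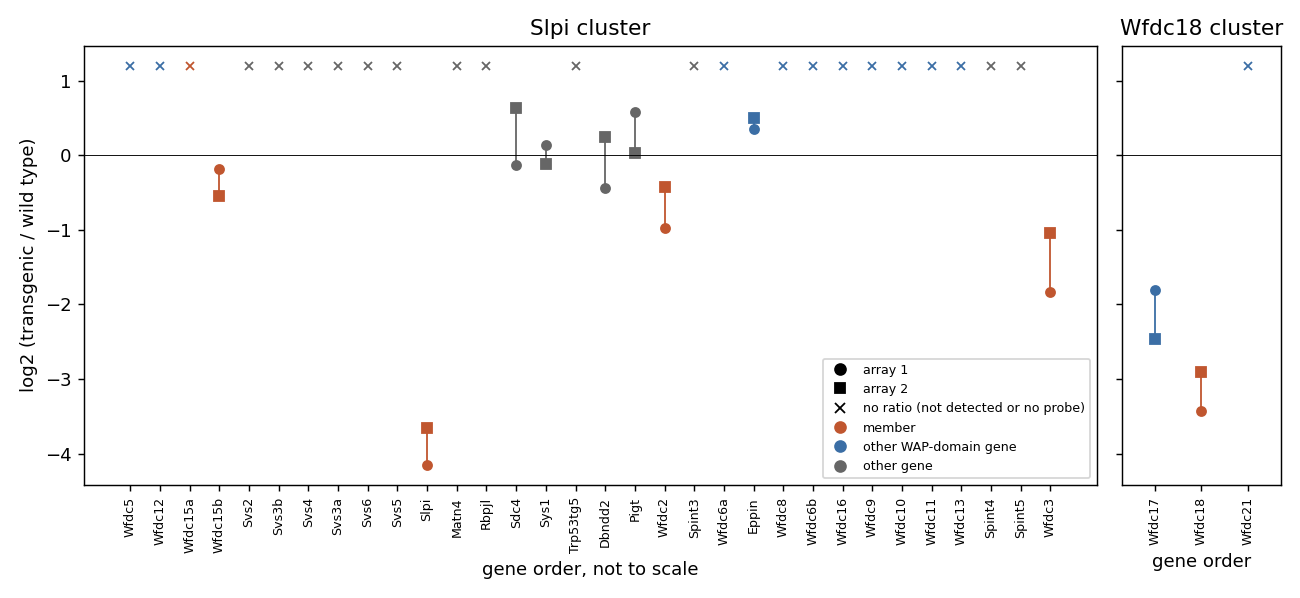
Log2 ratio on array 1 (circles) and array 2 (squares) of each detected gene of the Slpi cluster (left) and the Wfdc18 cluster (right), in gene order and not to scale, with members in orange, other WAP-domain genes in blue and other genes in grey. Crosses at the top mark genes with no ratio, and the 4 detected genes without a WAP domain stay within 1 log2 unit of 0.

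The adjacent genes Wfdc17 and Wfdc18 were both lower, and their promoters are printed here because they also resemble each other. Each is the RefSeq promoter of GRCm38.p6, from 250 bases before to 50 after the start, with matches to the TATA box (TATAAA) in capitals. The promoter of Slpi is given as that of the member with the lowest ratio. The header of the arrays names mm9, and no array value was placed by these coordinates.

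Wfdc17 (chr11:83703806-83704105, plus strand): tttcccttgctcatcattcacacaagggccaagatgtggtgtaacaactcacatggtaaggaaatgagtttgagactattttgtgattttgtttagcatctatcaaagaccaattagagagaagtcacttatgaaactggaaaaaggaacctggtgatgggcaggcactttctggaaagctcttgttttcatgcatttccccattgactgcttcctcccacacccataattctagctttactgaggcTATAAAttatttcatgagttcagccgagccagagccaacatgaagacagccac
Wfdc18 (chr11:83708754-83709053, plus strand): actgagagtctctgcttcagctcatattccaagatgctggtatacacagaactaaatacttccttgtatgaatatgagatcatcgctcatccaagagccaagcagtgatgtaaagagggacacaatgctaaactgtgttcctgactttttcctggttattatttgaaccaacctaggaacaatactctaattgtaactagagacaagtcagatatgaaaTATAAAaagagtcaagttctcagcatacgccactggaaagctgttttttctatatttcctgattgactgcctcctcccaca
Slpi (chr2:164356458-164356757, minus strand): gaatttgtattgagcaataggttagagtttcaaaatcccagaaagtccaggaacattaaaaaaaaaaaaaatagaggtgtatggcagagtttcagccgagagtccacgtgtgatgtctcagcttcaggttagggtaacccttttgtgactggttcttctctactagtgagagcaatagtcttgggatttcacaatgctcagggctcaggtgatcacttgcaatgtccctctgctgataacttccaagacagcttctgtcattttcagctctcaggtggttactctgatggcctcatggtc

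A local alignment of the Wfdc18 and Wfdc17 promoters paired 204 bases, 147 of them identical (72.1%), with a score of 119. The other 20 pairs among the promoters of the 6 members and Wfdc17 scored between 19 and 29. The paired stretch runs from position -171 to position 50 relative to the start of Wfdc18, and from -240 to -29 relative to that of Wfdc17, so the annotated starts are offset between the genes. A TATAAA match begins 31 bases before the start of Wfdc18 and 3 bases before that of Wfdc17. The match of Wfdc18 lies within the paired stretch and that of Wfdc17 outside it, so these matches are not paired with each other.

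Besides the TATA box, 3 motifs were searched on both strands: TTCNNNGAA for STAT factors, a loose NF-kB site (GGGA, any 4 bases, CC), and AGAACA, a part of androgen response elements. Of 27025 promoters, 14.2% held TATAAA, 8.47% TTCNNNGAA, 20.5% the NF-kB-like site and 19.0% AGAACA. Among the 6 members, Wfdc18 held TATAAA, Wfdc3 held the NF-kB-like site and AGAACA, Wfdc15b held AGAACA, and TTCNNNGAA was found in none (0 of 6). The Slpi window held none of the 4 motifs (0 matches), nor did those of Wfdc2 and Wfdc15a.

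The listed serine proteases, of the enzyme class that such inhibitors act on, were either not detected or not called. None of the 16 leukocyte serine protease genes with a probe was detected (0 of 16), among them neutrophil elastase (Elane), cathepsin G (Ctsg), the mast cell chymase Cma1 and the granzymes. Of 23 epithelial and tissue serine protease genes with a probe, 12 were detected and 0 were called, with a median log2 ratio of -0.06. They ranged from Hpn, the epithelial membrane protease hepsin, at -0.81 ± 0.12 to Prss8, the sodium channel activator prostasin, at 0.43 ± 0.27. Of genes whose products are known to interact with SLPI, 3 were detected and 0 were called: progranulin (Grn) at 0.12 ± 0.20, the phospholipid scramblase Plscr1 at -0.05 ± 0.29 and annexin A2 (Anxa2) at -0.15 ± 0.41.

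Inhibitors of other families went both ways. Of 26 with a probe 18 were detected, 5 were lower, 1 was higher and the median was -0.65. Lower were the Kazal inhibitors Spink1 (-5.88 ± 0.21) and Spink5 (-4.58 ± 0.27), the serpins Serpina3n (-1.307 ± 0.001) and Serpinb11 (-1.20 ± 0.09), and Timp2, an inhibitor of metalloproteases (-1.05 ± 0.07). Higher was the Kazal gene Spink8 (2.48 ± 0.01).

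Genes whose ratios on the arrays lay closest to those of Slpi, by Euclidean distance over 2 technical arrays, were Cd79b (distance 0.21), Ms4a1 (0.28), Reg3g (0.31), Ccl8 (0.41) and Iigp1 (0.42). Cd79b and Ms4a1 are B-cell surface proteins, Reg3g is an antibacterial lectin, Ccl8 a chemokine and Iigp1 an interferon-inducible GTPase. Closest to Wfdc18 were Saa1 (0.24), C3 (0.25), Tgtp1 (0.33), H2-Ab1 (0.33) and Cp (0.38). Closest to Wfdc3 were Adgre1 (0.06), Bfsp2 (0.07), C1qc (0.08), H2-K2 (0.10) and Cd300lf (0.11). With a pair of technical arrays this likeness says only that the ratios were of similar size.

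Of the marker lists of cells that the tissue could hold, the macrophage, lymphocyte and neutrophil lists had medians below 0 beside the called members, and the general epithelial list had a median above 0. The other epithelial lists also had medians below 0: basal (-0.45), proximal luminal (-0.13) and ventral prostate secretion (-0.70). Of 10 detected macrophage genes 8 were lower, with a median of -1.39, and their summed normalized intensity was 12774 and 15152 in the wild-type pool against 3946 and 4204 in the transgenic pool. Of 7 detected lymphocyte genes 4 were lower, with a median of -1.52 and sums of 4993 and 5887 against 757 and 1090. Of 7 neutrophil genes with a probe S100a8 (-1.05 ± 0.73) and S100a9 (-2.40 ± 0.14) were detected, S100a9 alone was called, and Elane, Mpo, Camp, Ngp and Cxcr2 were not detected. The summed intensity of S100a8 and S100a9 was 563 and 908 against 157 and 216. Mast cell markers were not detected (0 of 4). Summed intensity over the 8 epithelial markers was 92359 and 79660 against 87723 and 101250, with 0 called and a median of 0.40. Of the 9 detected proximal luminal genes 1 was lower and 3 were higher, and the summed intensity of the 9 was higher in the transgenic pool, at 48735 and 48515 against 154129 and 171903. All 4 basal genes were below 0 on both arrays with 0 called, and their sums were 7036 and 6321 against 4707 and 5076. What these cell types contributed to the ratios of Slpi, Wfdc17, Wfdc18 and Wfdc3 was not tested. In pooled tissue RNA, fewer cells of a type and less RNA per cell cannot be told apart.

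All 6 markers of ventral prostate secretion and identity were detected, and 0 of 7 seminal vesicle genes. Of the ventral prostate genes, Sbp (-1.35 ± 0.55), Spink1 and Mmp7 (-2.44 ± 0.92) were lower, and the summed intensity of the 6 was 762628 and 652105 in the wild-type pool against 122891 and 154132 in the transgenic pool. Of 4 mammary genes Lalba alone was detected (0.21), and the milk protein gene Wap, after which the domain is named, was not.

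**Figure D4:**
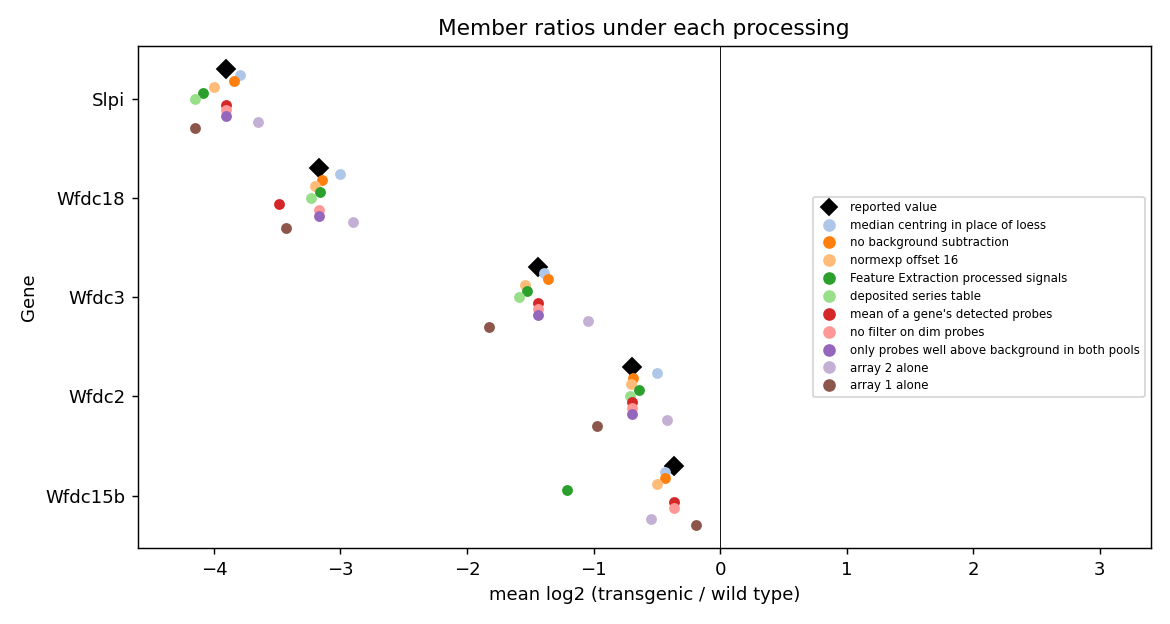
Mean log2 ratio of the 5 detected members (rows) as reported (black diamonds) and under each other processing or on a single array (coloured circles). Slpi, Wfdc18 and Wfdc3 stay below -1 under each of the 10 alternatives, of which the detection settings could not move them. Wfdc15b ranges from -1.21 to -0.19.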

How the data were processed

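Expression was measured by hybridising both RNA pools to 2 two-colour Agilent arrays (100 ng of RNA each, per the labels). Per the file headers, spots were read with Feature Extraction 11.0.1.1. The deposited files give median intensity of spot and local background, not normalized, processed intensity, and a log10 ratio of red over green made by the authors' software. The deposited series table holds log2 ratios, found by comparison with the scanner files to be transgenic over wild type and centred on 0.

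Medians were background-corrected with normexp (offset 50) and loess-normalized in limma 3.58.1 (R 4.3.3), with control and outlier spots at weight 0. Levels were made with Aquantile. Spots of a probe were averaged, and each gene took its brightest detected probe. RefSeq and Ensembl identifiers gave symbols to 27816 of 41174 probes (GRCm38.p6). The steps were tested on simulated data. Named genes are the members, their family and cluster, listed genes past the call rule or at a list's extremes, a few others chosen after their values were seen, and the 5 genes closest to each called member. Members and lists were chosen with earlier results of these data known. Alternatives were other background, normalization, detection, probe and call rules, and single arrays.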

Additional observations from a re-analysis of the deposited data

How the results depend on the processing

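The counts of members lower and higher stayed within 1.5 times of the reported ones under each alternative. Slpi ranged from -4.15 in the deposited series table and on array 1 alone to -3.66 on array 2 alone. Wfdc18 ranged from -3.49 with the mean of its probes to -2.90 on array 2 alone, Wfdc3 from -1.83 on array 1 to -1.05 on array 2, and Wfdc2 from -0.98 to -0.42 on the same arrays. Slpi, Wfdc18 and Wfdc3 were called under each of these 10 alternatives, and Wfdc2 under 0 of them. With a rule that asked only for a mean of 1.5-fold and the same direction on both arrays, Wfdc2 was called as well (4 members). Over all 13902 detected genes, lower calls rose from 491 under the reported rule to 1077 under this one. With the limit on the mean raised to a log2 ratio of 2, Wfdc3 was not called (2 members), and lower calls over all detected genes fell to 166. Wfdc15b was called under 1 of the 8 that measured it, the processed signals, at -1.21, and had no value in the series table or with detection in both pools. Eppin was called higher (1.22) with the processed signals alone. With those signals 938 of all detected genes were called lower and 309 higher, against 491 and 151 as reported. With median centring the SD of the arrays was 1.12 for Slpi and for Wfdc18. Signal near background limits Wfdc15b and Wfdc15a.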

Other observations

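Among the proteases and inhibitors set beside the WAP-domain genes, some changed sign between the arrays, so that their mean hides opposite readings. The epithelial protease Tmprss4 stood at a log2 ratio of -0.67 on array 1 and 1.02 on array 2. The proprotein convertase Furin stood at 0.80 and -0.42, the metalloprotease inhibitor Timp4 at 1.12 and -0.14, and the cystatin Cstb at 0.61 and -0.50. These genes were chosen after their values were seen.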
